A study of Homo sapiens with 2 samples.

Results

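The genes described here code for the LKB1, AMPK and mTOR signalling proteins, 40 in all among 19970 protein-coding genes on chromosomes 1 to 22 and X. They were chosen by symbol in the GENCODE annotation of GRCh38, and all 40 were found there. The question was where asymmetric dimethylation of arginine 3 of histone H4 (H4R3me2a) lies at these genes and how their subcomplexes compare. The data are 1 library of chromatin immunoprecipitated with an H4R3me2a antibody and 1 library of input DNA. Both came from HCT116, an established human colorectal carcinoma cell line, grown without drug treatment and cross-linked with formaldehyde. Each group had 1 library, so no difference described here could be tested against the spread between experiments, and intervals cover counting error only.

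H4R3me2a is placed mainly by the arginine methyltransferase PRMT1 and is known as a mark of active promoters. LKB1, a kinase held active by its partners STRAD and MO25, phosphorylates AMPK, a sensor of low cellular energy. AMPK restrains mTORC1, the kinase complex that drives protein synthesis and growth, through the TSC complex and through RAPTOR, and it activates the autophagy kinase ULK1. Amino acids act on mTORC1 at the lysosome through the Rag GTPases, their Ragulator anchor and the inhibitory GATOR1 complex. In the colon, inherited loss of STK11, the LKB1 gene, causes the polyps of Peutz-Jeghers syndrome.

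A peak of the authors' list was given to a gene when its summit lay in the gene record or at most 1 kb from the start (TSS) of an annotated transcript. By that rule 26 of the 40 genes held 123 peaks, and 14 held none. The share with a peak was 65% (95% exact binomial interval 48.3 to 79.4%), and 47.2% of all protein-coding genes had one. A peak within 1 kb of any TSS was found at 21 genes (52.5%, 36.1 to 68.5%), against 31.6% of all genes. A peak within 1 kb of the 5' end of the gene record was found at 12 genes (30%, 16.6 to 46.5%), against 19.2%, and that interval includes the value of all genes. A peak in the body away from every TSS was found at 21 genes (52.5%), against 32.8%. The median length was 40.01 kb for the 40 genes and 27.48 kb for all protein-coding genes, and the median number of annotated TSSs was 8 and 5. Their median GC content was similar, at 45.3 and 45.2%. The part of length and TSS number in the higher shares was not tested.

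**Figure D1:**
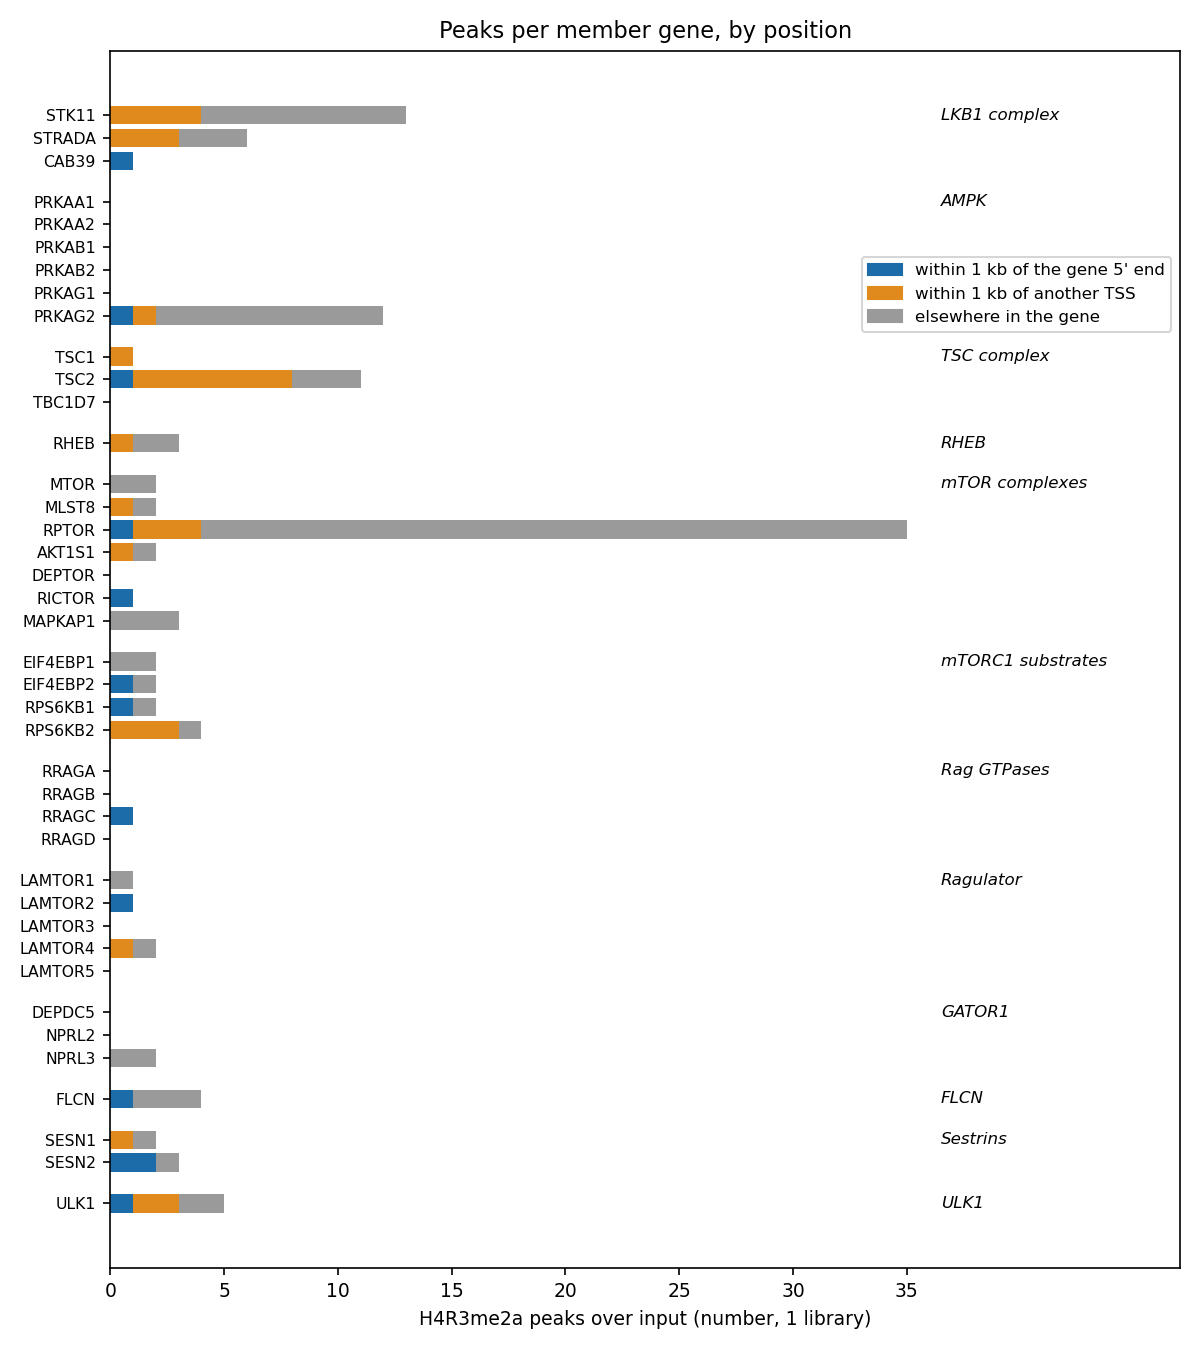
Number of H4R3me2a peaks over input at each of the 40 genes, grouped by subcomplex from top to bottom; colours show peaks within 1 kb of the 5' end of the gene record, within 1 kb of another TSS, or elsewhere in the gene. RPTOR holds 35 peaks, STK11 13, PRKAG2 12 and TSC2 11, and 14 genes hold none.

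The peaks were unevenly spread. RPTOR, STK11, PRKAG2 and TSC2 each held 10 or more and together 71 of the 123 (57.7%). Of all protein-coding genes, 2.05% held 10 or more. Of the 123 peaks, 13 lay at the 5' end of a gene record, 29 at another TSS and 81 elsewhere in the body. By the canonical transcript, 101 summits (82.1%) were intronic, 10 lay in coding exons, 3 in 5' UTRs and 1 in a 3' UTR. The remaining 8 lay outside the canonical transcript. RPTOR alone held 33 of the intronic summits, and these shares were not computed for the peaks of all protein-coding genes. In 18 of the 123, the summit also lay in another protein-coding gene or within 1 kb of its TSS, so it cannot be assigned to one of the genes alone.

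The peaks of these genes rested on few fragments, as in the rest of the list. Summits of the 123 peaks had a median of 11 overlapping fragments, the pileup, with quartiles of 9 and 14, while all 33349 peaks had a median of 10. The local background, recovered from pileup and fold, had a median of 2.05 fragments at the 123 peaks and 1.54 at all peaks. Median fold enrichment, as the authors gave it per peak, was 4.06 at these genes and 4.18 in the whole list. A fold of 6 was reached by 4 of the 123 peaks (3.25%, 0.893 to 8.12%) and by 3.51% of all peaks. Peaks of 400 bp or more made up 13.8% (8.26 to 21.2%), against 7.48% of all peaks. On chromosomes 16, 17 and 19, which hold TSC2, RPTOR and STK11, the shares among all peaks were 10.7, 11.0 and 8.85%. The part of chromosome in the difference was not tested, and the interval treats peaks of the same gene as independent. A fold depends on the local background, so pileup and background are given beside it where a result turns on it. The lowest background of the 123 peaks, 0.697, recurred at STK11, PRKAG2, RHEB, NPRL3 and SESN1, which lie on several chromosomes. A value repeated at distant genes is not shown to be a local input level. A gene without a peak is not shown to lack the mark, since the lowest pileup that was called anywhere was 5 fragments.

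The sequence under 6 of the peaks is shown, since they stand for the widest peak of the group, the body peaks of RPTOR and the peaks at gene starts. Each is 201 bases of GRCh38, written 5' to 3' on the strand of the gene, with every CG dinucleotide (CpG, the same on both strands) in capitals. Windows are centred on the summit, except at STK11, where the centre was moved by 1 base to leave out UTR sequence.
STK11, widest peak, chr19:1206914-1207114, plus strand: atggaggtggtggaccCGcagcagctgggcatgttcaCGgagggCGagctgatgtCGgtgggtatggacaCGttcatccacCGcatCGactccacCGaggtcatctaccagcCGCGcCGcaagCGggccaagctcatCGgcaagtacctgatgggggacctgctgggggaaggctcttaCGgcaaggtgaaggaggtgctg
RPTOR, body peak of highest fold, chr17:80830168-80830368, plus strand: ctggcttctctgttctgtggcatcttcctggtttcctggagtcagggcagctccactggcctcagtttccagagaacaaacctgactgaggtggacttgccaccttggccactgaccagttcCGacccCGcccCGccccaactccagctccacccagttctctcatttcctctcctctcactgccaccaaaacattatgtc
RICTOR, peak at the start, chr5:39073807-39074007, minus strand: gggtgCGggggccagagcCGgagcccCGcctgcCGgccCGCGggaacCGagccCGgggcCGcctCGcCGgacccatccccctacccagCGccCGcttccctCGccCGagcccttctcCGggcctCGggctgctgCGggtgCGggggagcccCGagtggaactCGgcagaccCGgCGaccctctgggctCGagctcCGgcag
TSC1, peak at the start, chr9:132944165-132944365, minus strand: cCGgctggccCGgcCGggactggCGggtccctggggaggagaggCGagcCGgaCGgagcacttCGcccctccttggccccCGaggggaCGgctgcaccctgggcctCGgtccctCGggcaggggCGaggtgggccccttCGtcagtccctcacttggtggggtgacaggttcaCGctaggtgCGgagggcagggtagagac
EIF4EBP2, peak at the start, chr10:70404795-70404995, plus strand: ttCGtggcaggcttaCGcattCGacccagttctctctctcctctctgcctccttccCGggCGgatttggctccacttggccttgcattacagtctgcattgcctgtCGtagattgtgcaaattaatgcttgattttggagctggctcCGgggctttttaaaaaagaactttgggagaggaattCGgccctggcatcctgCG
RRAGC, peak at the start, chr1:38859309-38859509, minus strand: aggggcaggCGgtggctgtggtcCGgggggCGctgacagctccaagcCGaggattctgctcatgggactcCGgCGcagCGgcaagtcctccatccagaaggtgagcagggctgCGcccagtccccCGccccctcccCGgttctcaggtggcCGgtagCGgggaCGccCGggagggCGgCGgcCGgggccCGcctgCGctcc
The STK11 window holds 14 CpGs in 63.2% GC and opens with the start codon. The RPTOR window holds 3 CpGs in 56.7% GC, and the RICTOR window 25 in 79.6% GC. TSC1 has 16, EIF4EBP2 has 9 and RRAGC has 19. In windows of this length the median was 6 CpGs over the 123 peaks and 5 over all peaks. A CG was present in 98.4% of these windows and in 97.1% of all.

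All 3 genes of the LKB1 complex carried peaks, 20 in all. STK11, which codes for the kinase LKB1 itself, held 13 peaks in 50.9 kb on chromosome 19. Its widest peak, at 1206912 to 1208381, covered 1470 bp, the width of rank 4 among all 33349 peaks. It had 13 fragments at the summit over a background of 2.05, a fold of 4.59. The GENCODE record of STK11 begins 28220 bp upstream of the canonical TSS, so no peak counted at its 5' end, and the widest peak counted at another TSS.

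Measured from the canonical TSS of STK11, the widest peak ran from 1134 to 2603 bp downstream. The coding sequence begins 1136 bp downstream and the first exon ends at 1425 bp, so the peak covered the coding part of exon 1 and the start of intron 1. A pair of narrower peaks preceded it in the 5' UTR, with summits 122 and 654 bp downstream, pileups of 6 and 7 and folds of 3.90 and 4.06. These 3 peaks spanned 2514 bp and covered 1943 bp of it. No other gene of the group had more than 665 bp of peak with summits in the 2500 bp downstream of its canonical TSS. The 401 bp around each summit held 68, 48 and 26 CpGs in the order of transcription, while pileup and background were highest at the last.

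The other 10 peaks of STK11 lay away from its start. The highest fold of the whole group, 7.07 from 11 fragments, lay 5659 bp upstream of the canonical TSS, inside the long gene record. Its background of 0.697 was the lowest of the group and recurred at other genes. Intron 1 held a peak of fold 6.31 from 15 fragments over 1.54. A second wide peak, of 671 bp and fold 4.59, lay in intron 3. The 3' part was dense, with 6 peaks from intron 7 to coding exon 9 and folds of 3.65 to 5.87. STK11 as a whole had 2.56 summits per 10 kb, and the 1 Mb on either side had 2.39. Its GC content was 57.5%.

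The partners of LKB1 differed in layout. STRADA, the pseudokinase that activates LKB1, held 6 peaks, 3 of them in the record beyond the canonical transcript. All 6 also lay in or next to other genes, among them LIMD2 and MAP3K3, and their median background of 3.33 fragments was the highest of any gene in the group. CAB39, which codes for the scaffold MO25, held a single peak in intron 1, 693 bp downstream of its 5' end, with 9 fragments and a fold of 4.48.

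AMPK genes mostly lacked peaks. PRKAA1 and PRKAA2 (the catalytic alpha subunits), PRKAB1 and PRKAB2 (the scaffolding beta subunits) and PRKAG1 (a nucleotide-binding gamma subunit) had none. PRKAG2, the other gamma subunit of the list, had 12 in its 321 kb. A peak 866 bp upstream of its 5' end had 7 fragments and a fold of 4.71, 10 lay in the body away from every TSS, and 1 lay 567 bp from an internal TSS. Every PRKAG2 peak had 10 fragments or fewer, as did 44.7% of the peaks of the 40 genes together and 59.5% of all peaks. Of the summits, 6 lay between 134225 and 176865 bp from the 5' end, in intron 3.

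GC content differed along with the peaks. PRKAA1, PRKAA2 and PRKAB2 were under 40% GC, PRKAG1 and PRKAB1 were at 45.4 and 47.8%, and PRKAG2 was at 48.9%. An expected number was computed for each gene from the rate at which 200-bp bins of the same GC content held summits over the whole genome. That number was 0.355 or less for each of the 5 AMPK genes without peaks and 11.5 for PRKAG2, where 11 summits were inside the record. The ratio for PRKAG2 was 0.958 (exact Poisson interval of the count over the expected number, 0.478 to 1.71). The part of GC content in the difference between PRKAG2 and the other 5 genes was not tested.

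In the TSC complex, the inhibitor of RHEB, TSC2 and TSC1 carried peaks and TBC1D7, the third subunit, had none. TSC2, the GTPase-activating subunit, held 11 peaks on chromosome 16. The peak nearest its 5' end lay 788 bp upstream, near the TSS of the neighbouring NTHL1, with 10 fragments and a fold of 4.16. The other 10 lay inside the gene, 7 of them within 1 kb of one of its 60 annotated TSSs. The widest, 617 bp at 2060625 to 2061241 in intron 11, also had the highest fold, 4.98 from 15 fragments. The last 8.305 kb of the gene, at 65.3% GC, held 5 of the 10. The 10 summits inside TSC2 stood against 6.03 expected from GC content, as computed for the AMPK genes above, a ratio of 1.66 (0.795 to 3.05).

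TSC1, the stabilising subunit, held 1 peak, and it lay 351 bp downstream of the canonical TSS in intron 1, with 11 fragments over a background of 1.02 and a fold of 5.93. Its record starts 2258 bp further upstream, so the peak counted at another TSS. The summit also lay at GFI1B, and TSC1 had no peak when shared peaks were left out. RHEB, the GTPase that activates mTORC1, held 3 peaks of 6 fragments each, with folds of 4.06 to 4.12. They had backgrounds of 0.697 to 0.726 fragments, and none lay within 1 kb of the canonical TSS.

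RPTOR carried most of the peaks of the mTOR complexes, 35 of 45. It codes for RAPTOR, the subunit that recruits substrates to mTORC1, and spans 422 kb on chromosome 17. Its count was of rank 11 among all protein-coding genes and of rank 2 among the 823 genes of 300 kb or more, whose median was 0. Of the 35 summits, 33 were intronic, 1 lay in the 5' UTR and 1 in the 3' UTR. The peak at the 5' end, 435 bp downstream, had 7 fragments over 1.21 and a fold of 3.63, and 1 peak of the gene had fewer fragments. That summit also lay at a protein-coding record listed by ID alone. The highest fold, 5.58 from 16 fragments over 2.05, lay in intron 9 at 80830179 to 80830321. The highest pileup, 20 fragments over 3.29 with a fold of 4.90, lay in the 3' UTR.

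RPTOR peaks were concentrated in the 3' part of the gene. Its 3' 168.6 kb held 26 of the 35 (74.3%), or 1.54 per 10 kb, and the 252.9 kb before them held 9, or 0.356 per 10 kb. GC content was 53.0% in the 3' part and 46.5% in the 5' part. The numbers expected from GC content were 12.5 in the 3' part and 5.81 in the 5' part. The ratios were 2.09 (1.36 to 3.06) and 1.55 (0.708 to 2.94), and their intervals overlap. The boundary was placed where the counts changed, so the contrast in counts is a description. Over 5 equal parts from the 5' end the ratios were 2.66, 0.939, 1.38, 2.29 and 1.94, with the first part highest. The median background was 2.68 fragments in the 3' part and 1.74 in the 5' part, and the part of either in the counts was not tested.

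The surroundings of RPTOR were denser than the gene. RPTOR had 0.83 summits per 10 kb, the 1 Mb upstream had 1.37 and the 1 Mb downstream had 4.14. Relative to GC content the ratios were 1.92 (1.34 to 2.67) in RPTOR, 2.16 upstream and 3.80 downstream. The gaps between neighbouring summits in RPTOR had a median of 6650 bp and ran from 399 to 64286 bp.

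**Figure D2:**
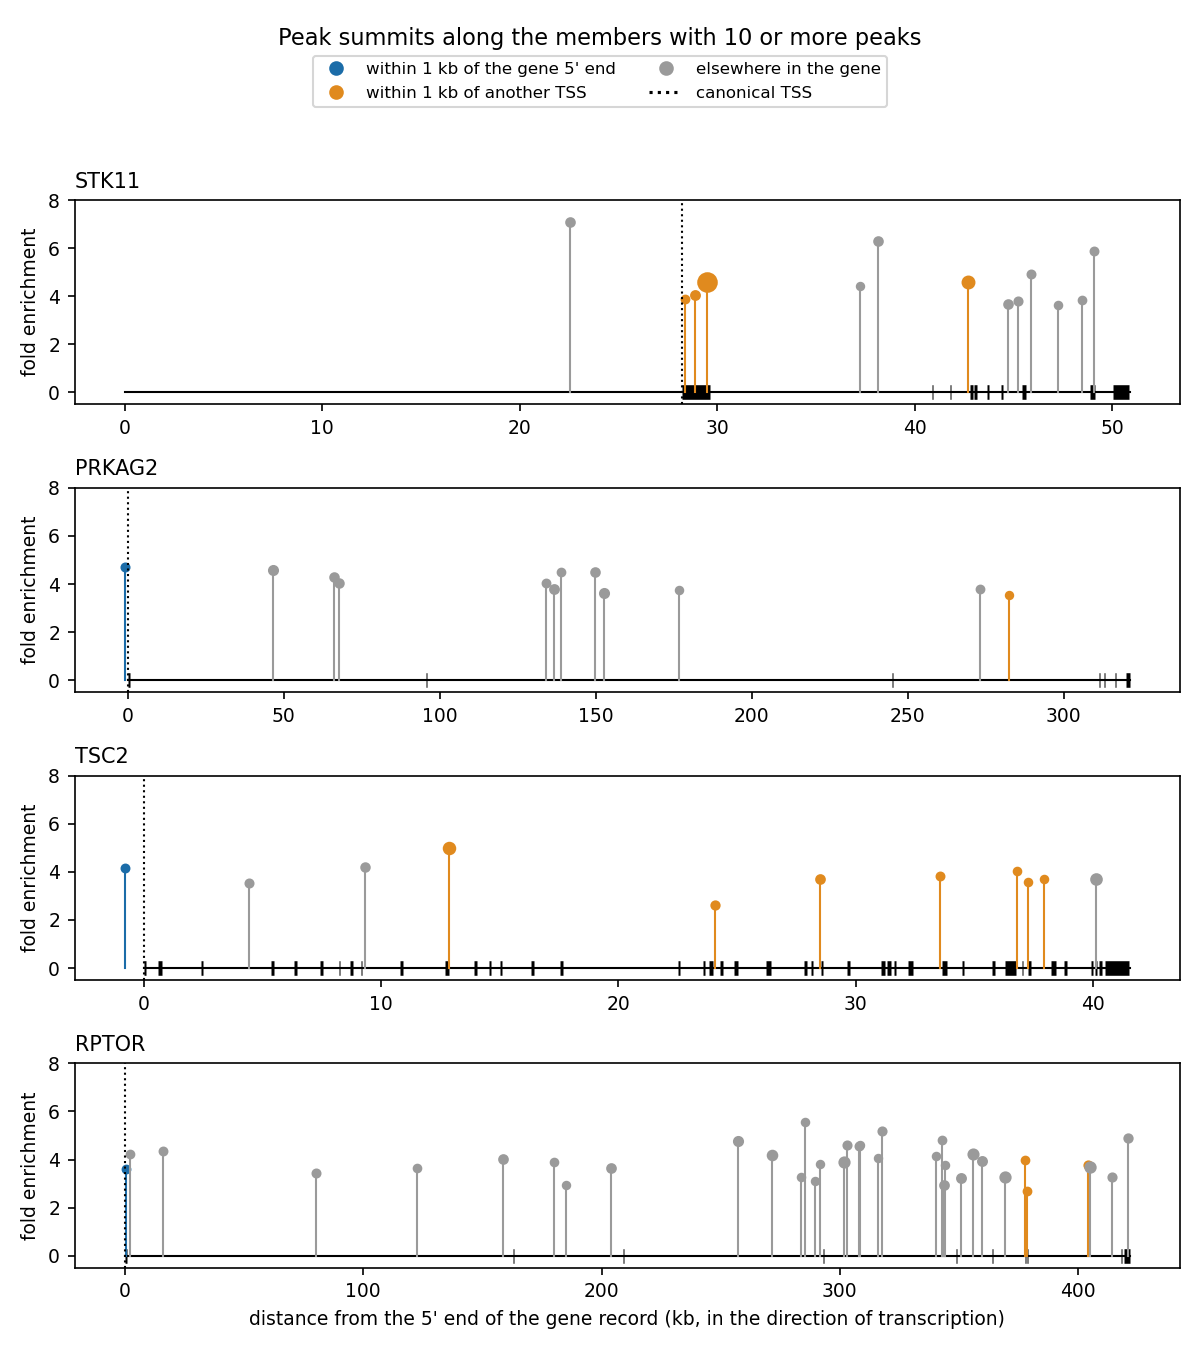
Summits along STK11, PRKAG2, TSC2 and RPTOR, drawn from the 5' end of the gene record in kb, with the authors' fold enrichment as height and point size growing with peak width; black boxes are exons of the canonical transcript and dotted lines its TSS. The widest STK11 peak stands just after the canonical TSS, and 26 of the 35 RPTOR peaks lie in its 3' 168.6 kb.

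The other mTOR subunits had few peaks by count, though their lengths differ widely. MTOR, the kinase, held 2 in 156 kb, of folds 4.96 in intron 28 and 4.15 in coding exon 10, and none near a TSS. MLST8, a subunit of both mTOR complexes, held 2 in 5.21 kb, of folds 3.82 and 2.92. AKT1S1, the mTORC1 inhibitor PRAS40, held 2 peaks in 9.43 kb, of folds 4.52 and 4.10. Per 10 kb, MLST8 had 3.84 summits and AKT1S1 2.12, more than the 0.83 of RPTOR, while MTOR had 0.128. Relative to GC content the ratios were 2.12 (0.256 to 7.65) in MLST8 and 1.76 (0.213 to 6.36) in AKT1S1. In MTOR the ratio was 1.36 (0.165 to 4.92), and in RPTOR it was 1.92. DEPTOR, an inhibitor of both complexes, had none in 177 kb.

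The mTORC2 subunits RICTOR and MAPKAP1 held fewer peaks than RPTOR and differed in layout from each other. RICTOR, the defining subunit of mTORC2, held 1 peak in 136 kb, and it lay at the start, 495 bp downstream of the 5' end, with 6 fragments over 1.02 and a fold of 3.46. MAPKAP1, the mTORC2 subunit SIN1, held 3 in 270 kb, all intronic, of 6 or 7 fragments and folds of 3.46 to 3.95. Like most RPTOR peaks, these 3 lay in the body away from every TSS. GC content was 35.6% in RICTOR and 41.8% in MAPKAP1, against 49.1% in RPTOR. The numbers expected from GC content were 0.543 for RICTOR and 2.85 for MAPKAP1.

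All 4 genes of mTORC1 substrates carried peaks, 10 in all, and the interval of that share (39.8 to 100%) includes the 47.2% of all genes. Summits inside the genes numbered 4.02 times the GC-based expectation (1.93 to 7.39). All protein-coding genes had a ratio of 1.28 and those with a peak 1.72. The expected number was 0.467 to 0.891 in each of the 4 genes, so a single summit already gives a ratio above 1. EIF4EBP1, which codes for the translational repressor 4E-BP1, had a peak in intron 1, 1110 bp downstream of the TSS. That peak covered 505 bp, with 13 fragments over 1.02 and a fold of 6.92, and fell just outside the 1 kb limit. EIF4EBP2, the gene of a related repressor, had a peak of 665 bp at 70404398 to 70405062 on chromosome 10, 750 bp downstream of its TSS. It had 14 fragments over 1.49, a fold of 6.02, and a second peak in intron 1 had a fold of 5.69.

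The S6 kinase genes differed from each other in position. RPS6KB1, on chromosome 17, had a peak 356 bp downstream of its 5' end, which also lay near a TSS of TUBD1, with 10 fragments over 2.56 and a fold of 3.09. A second peak, in intron 1, had a fold of 4.21. RPS6KB2 held 4 peaks in 6.94 kb, or 5.76 per 10 kb, the highest density of the 40 genes. None of the 4 lay at its 5' end, and they ran from intron 5 to coding exon 13 with folds of 3.24 to 4.37.

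The Rag GTPase, Ragulator and GATOR1 genes held 7 peaks in all, 2 of them at a 5' end. Of the Rag GTPase genes, RRAGC held 1 peak, 363 bp downstream of its TSS, with 8 fragments over 0.713 and a fold of 5.25, and RRAGA, RRAGB and RRAGD had none. In Ragulator, LAMTOR2 held a peak of 549 bp, 344 bp downstream of its TSS, with 9 fragments and a fold of 4.94. LAMTOR4 held 1 in coding exon 3 (fold 5.91 from 14 fragments) and 1 beyond its canonical transcript, at TRAPPC14. LAMTOR1 held 1 outside its canonical transcript (fold 4.07), shared with LRRC51 and LRTOMT, and LAMTOR3 and LAMTOR5 had none.

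In GATOR1, the brake on the Rag GTPases, NPRL3 held 2 intronic peaks. Their folds were 5.89 and 4.71, from 9 and 7 fragments over 0.697, the lowest background of the group. DEPDC5 and NPRL2 had no peak, although NPRL2 is at 56.7% GC. NPRL2 spans 3.50 kb and had an expected number of 0.287. None of the 3 GATOR1 genes had a peak within 1 kb of any TSS (0 to 70.8%), an interval that includes the 31.6% of all genes. Over its 3 genes, 2 summits stood against 4.28 expected from GC content (ratio 0.468, 0.0566 to 1.69).

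FLCN, the folliculin gene, whose product acts on RRAGC and RRAGD, held a peak of 384 bp, 412 bp downstream of its 5' end, with 10 fragments and a fold of 5.43, and 3 more in introns. All 4 also lay in an overlapping protein-coding record listed by ID alone, and 1 also in MPRIP. The sestrin genes, stress-induced inhibitors of mTORC1, differed in layout. SESN2, a leucine sensor, held 2 peaks at its start, at 370 and 828 bp, with folds of 4.62 and 4.34, and 1 in coding exon 5. SESN1 held 1 near an internal TSS (fold 3.94) and 1 in intron 1 (fold 5.89 from 9 fragments). ULK1, the autophagy kinase under AMPK and mTORC1, held 5 peaks, one of them 761 bp downstream of its TSS with a fold of 5.56. At 62.4% GC, its 5 summits stood against 4.81 expected.

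Peaks at the starts of these genes lay mostly on the transcribed side. The side of the start and the share in intron 1 were not computed for all protein-coding genes. Neither is therefore shown to be particular to this group. Of the 13 peaks at the 5' end of a gene record, 11 lay downstream at 344 to 828 bp (median 435) and 2 lay upstream, at 788 bp in TSC2 and 866 bp in PRKAG2. Measured from the canonical TSS, 14 genes (35%, 20.6 to 51.7%) had a peak within 1 kb, against 21.4% of all genes, and 14 of their 16 peaks lay downstream, at 122 to 828 bp. STK11 and TSC1 were among these 14 genes, though neither had a peak at the 5' end of its record. Intron 1 of the canonical transcript held 27 of the 123 peaks, in 16 genes. The peaks at 5' ends lay in CpG-rich sequence, with a median of 26 CpGs in 401 bp, against 12 for peaks in the body away from every TSS. All peaks of the list had a median of 10, and 5' end peaks of all genes were not counted apart. The 5' end peaks had lower backgrounds than these body peaks, with medians of 1.02 and 2.05 fragments, and higher folds, with medians of 4.62 and 4.06. Their pileups were lower, with medians of 9 and 11 fragments, and 92.3 and 45.7% of the peaks had 10 fragments or fewer. The higher folds at 5' ends therefore came with fewer fragments at the summit, over a lower background. The summits just inside the 1 kb limit lay 866 bp from the nearest TSS in PRKAG2 and 945 bp in ULK1, and those just outside lay 1024 bp away in RPS6KB2 and 1036 bp in MLST8.

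**Figure D3:**
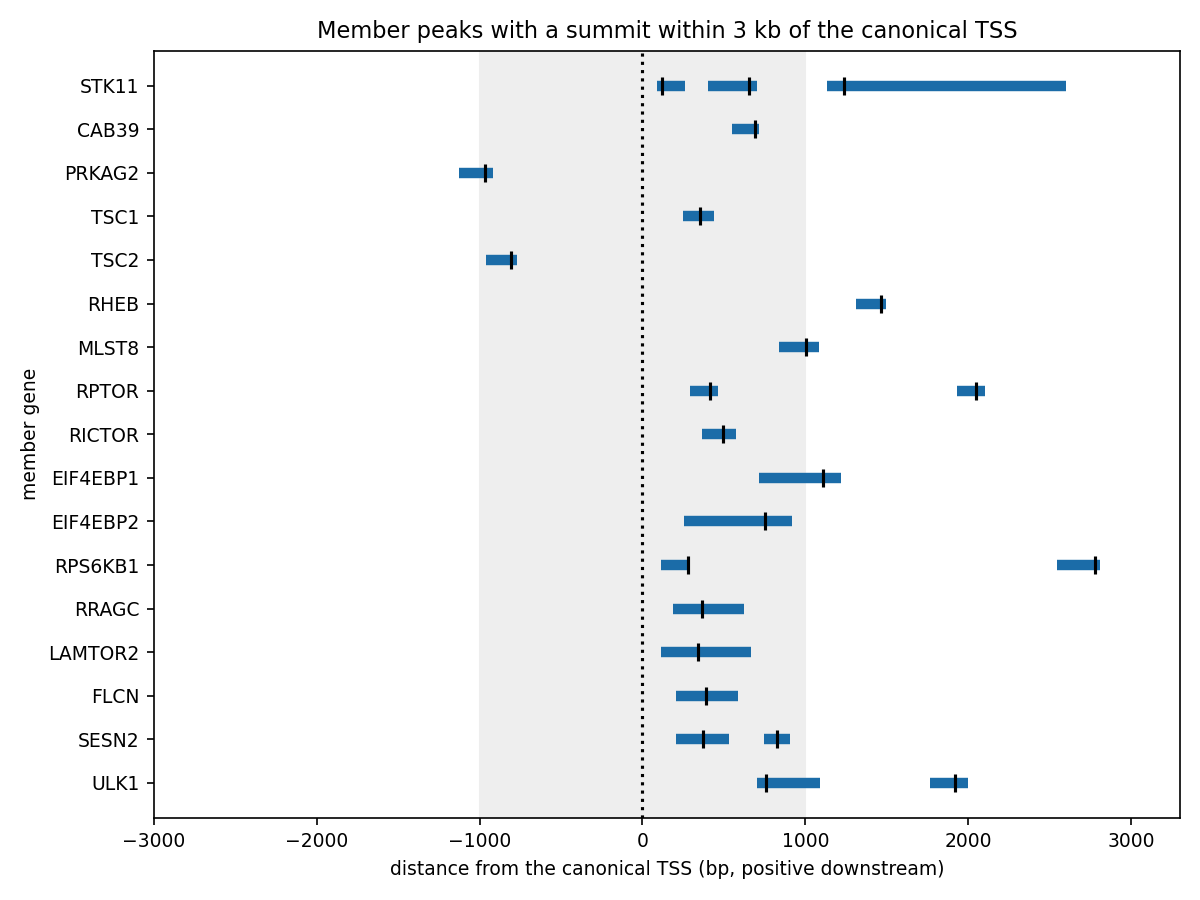
Peaks with a summit within 3 kb of the canonical TSS of each gene, with the distance in bp on the x axis; bars span the peaks, black ticks mark summits and the grey band covers 1 kb on either side. Nearly all bars lie to the right of the TSS, and the upstream ones are those of PRKAG2 and TSC2.

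Set side by side, the subcomplexes had too few genes for their shares with a peak at the 5' end to be told from the 19.2% of all genes. Such a peak was found at 1 of 3 genes of the LKB1 complex, 1 of 6 of AMPK, 1 of 3 of the TSC complex, 2 of 7 of the mTOR complexes and 2 of 4 of the substrates. It was found at 1 of 4 Rag GTPase genes, 1 of 5 of Ragulator, 0 of 3 of GATOR1 and 1 of 2 sestrin genes. FLCN and ULK1 also had one, and RHEB had none. Body peaks away from every TSS numbered 38 in the mTOR complexes, 12 in the LKB1 complex and 10 in AMPK, and 0 to 5 elsewhere. Summit density was 0.914 per 10 kb (exact Poisson interval 0.558 to 1.41) in the LKB1 complex and 0.23 (0.115 to 0.412) in AMPK, intervals that do not overlap. Each value rested on 1 gene, since STK11 held 13 of the 20 summits of the LKB1 complex and PRKAG2 all 11 of AMPK. Without STK11 the LKB1 complex had 7 summits, or 0.417 per 10 kb (0.168 to 0.859), and that interval overlaps the one of AMPK. Without PRKAG2 the AMPK genes had 0 (up to 0.235). It was 0.842 (0.404 to 1.55) in the substrates, 0.691 (0.345 to 1.24) in the TSC complex and 0.383 (0.279 to 0.512) in the mTOR complexes. Relative to GC content, the LKB1 complex had a ratio of 2.46 (1.50 to 3.79) and AMPK 0.861 (0.43 to 1.54), whose intervals overlap slightly. With 1 library, intervals over peaks do not cover the spread between experiments.

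Peak density was higher in genes of higher GC content within the group. Over the 40 genes, Spearman's rho between GC content and summits per 10 kb was 0.66, and over all protein-coding genes it was 0.50. These are descriptions across genes of 1 library, which share its depth. Of the 14 genes without a peak, 9 were under 45% GC. Their median GC content was 42.8%, near the 42.3% of all protein-coding genes without a peak. Of 7 genes at 55% GC or more, 6 had a peak, while 71.2% of all genes in that range did. Of 6 genes under 40% GC, 2 had one (RICTOR and SESN1), against 24.9% of all genes there. Summed over the 40 genes, 121 summits lay inside the records against 72.9 expected from GC content, a ratio of 1.66 (1.38 to 1.98). Over all protein-coding genes the ratio was 1.28. Among genes with a peak, the ratio was 1.83 in the group and 1.72 in all protein-coding genes. Without RPTOR the ratio of the group was 1.57. The interval treats neighbouring summits as independent.

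**Figure D4:**
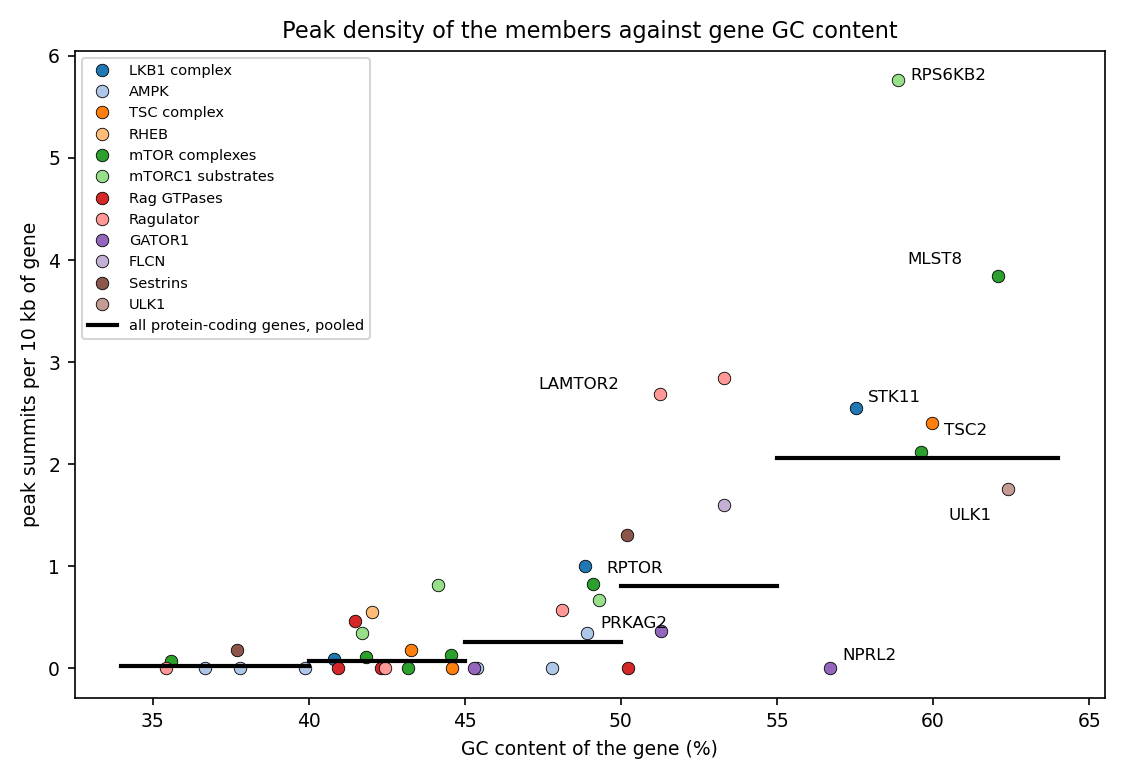
Peak summits per 10 kb of gene against the GC content of the gene for the 40 genes, coloured by subcomplex; black lines give the pooled density of all protein-coding genes in 5 ranges of GC content. RPS6KB2 stands highest at 5.76 per 10 kb, and NPRL2 has no peak at 56.7% GC.

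Of 54 other genes of the pathway, among them the AMPK-related kinases, AMPK substrates, GATOR2 and KICSTOR subunits and mTOR outputs, 36 (66.7%, 52.5 to 78.9%) had a peak, against 47.2% of all protein-coding genes. A peak at the 5' end was found at 13 (24.1%, 13.5 to 37.6%), near the 19.2% of all genes, which lies in the interval. The 54 genes had a median length of 65.7 kb and a median of 9.5 TSSs, against 27.48 kb and 5 for all protein-coding genes. The part of length and TSS number in these shares was not tested. MARK4, an LKB1-activated kinase of chromosome 19, held 37 peaks in 226 kb, more than RPTOR and none at its 5' end. PRR5, an mTORC2 subunit, held 11, BRSK1, a kinase also activated by LKB1, held 10, and MARK2 held 8. The highest folds at 5' ends were 8.40 at SIK3, another kinase under LKB1, 7.17 at WDR59 of GATOR2, 5.43 at PDCD4, a translation inhibitor degraded after S6 kinase signalling, and 4.94 at PRR5. Of the 12 AMPK-related kinases, 9 had a peak (42.8 to 94.5%), and of the 6 AMPK subunit genes 1 did (0.421 to 64.1%). These intervals overlap, and both include the 47.2% of all genes.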

How the data were processed

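H4R3me2a ChIP-seq of HCT116 cells was compared with input DNA, 1 library each. The submitters' processing notes name Bowtie2, MACS2, deepTools and the build GRCh38. Their versions and settings are not given in the sources available. The deposited peak table gives whole-number counts of fragments at each summit (the pileup), a fold ratio over the local background, −log10 p- and q-values and widths, each the authors' own value per peak, called on single libraries. The deposited interval list gives the same values with a score of the authors, and it was not used further. Library depth is unknown, and the pileup at called summits does not show it. The background was recovered as (pileup + 1) / fold − 1.

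Of 33353 deposited peaks, 33349 on chromosomes 1 to 22 and X were used. No chromosome had a peak beyond the end of the GRCh38 sequence used here. Genes, TSSs, canonical transcripts and exons came from GENCODE release 44. Peaks at the 5' end were counted first, then at other TSSs, then in the body. GC-based numbers used summit rates of 200-bp bins in classes of 2%. Shares have exact (Clopper-Pearson) and counts exact Poisson intervals at 95%, for counting error only; no test was made. The assignment was tested on simulated summits. All 40 genes were described, with fuller values for those with a peak at the 5' end, most peaks, the widest peak or the highest fold of a subcomplex. Members, lists and alternatives were chosen with earlier results of these data known. Alternatives varied the peak set, window, overlap, merging and transcripts. Python 3.11.15, numpy 2.4.6, pandas 2.3.3 and scipy 1.17.1 were used.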

Additional observations from a re-analysis of the deposited data

How the results depend on the processing

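Of 55 recomputed values, 35 stayed within 1.5 times the reported one, among them all values with any overlap of the peak in place of the summit. With a −log10 q of 5 or more, 8 peaks remained in 5 genes, with 2 genes at any TSS, 1 at a 5' end, 2 peaks in RPTOR, 0 in TSC2 and 0.0289 peaks per 10 kb. Of all protein-coding genes, 5.25% had a peak in that set, 3.06% had one at any TSS and 1.59% had one at the 5' end. With a fold of 4 or more there were 65 peaks, 16 in RPTOR, 3 in TSC2 and 0.228 per 10 kb. With the 50% of peaks of higher −log10 q there were 59, 20 in RPTOR, 5 in TSC2 and 0.21 per 10 kb. These sets hold fewer peaks by construction. The 5' end count was 7 genes in a window of 500 bp and 21 in one of 3 kb, against 9.83 and 30.8% of all genes. Merging peaks under 1 kb apart joined the 3 STK11 start peaks into 2514 bp. Alternatives added after seeing the data were canonical transcripts for body and TSS (25 genes, 117 peaks), shared peaks left out (21 genes, 105 peaks) and RPTOR left out (0.367 per 10 kb). The share of all protein-coding genes was not computed for canonical transcripts in body and TSS or for shared peaks left out. Also added were the LKB1 complex without STK11 (0.417 summits per 10 kb) and AMPK without PRKAG2 (0). No paired analysis was possible because there is 1 library in each group. No replicate could be left out either.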

Other observations

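The 14 genes without a peak lay at very different distances from the nearest summit outside them, with a median of 26.7 kb. NPRL2 was nearest at 1007 bp, just beyond the limit of 1 kb, followed by PRKAG1 at 2226 bp and PRKAA1 at 2579 bp. For PRKAA1, the gene of a catalytic subunit of AMPK, that peak had 9 fragments and a fold of 4.94. DEPTOR had one at 4935 bp with 6 fragments, and RRAGB, on the X chromosome, had none within 2397 kb. The X chromosome held 177 peaks in all, and 11.5% of its protein-coding genes had a peak, against 47.2% of all genes. The numbers expected from GC content summed to 6.69 over the 14 genes and were highest for DEPDC5, at 1.53, and DEPTOR, at 1.36.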
